A study of Homo sapiens with 18 samples.

Results

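The genes described here are 45 interferon response genes, among them the interferon receptor chains, the transcription factors that carry the signal and the antiviral genes that they switch on. They were taken as a list of symbols, and each was read from the array feature annotated to that gene alone. Of the 45 genes, 43 had such a feature, out of 20546 features with a gene symbol. STAT2 and GBP1 had no feature of their own in the annotation used and were not analysed as single genes.

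Interferons are signalling proteins, and those of type I are released by cells that sense viral nucleic acid. Type I interferon binds the IFNAR1 and IFNAR2 receptor pair, whose kinases phosphorylate transcription factors such as STAT2. A complex with IRF9 then binds DNA elements with repeated GAAA letters, while interferon gamma acts through IFNGR1 on elements called GAS. The genes switched on block viral entry, RNA and protein synthesis, attach the ubiquitin-like protein ISG15 to other proteins, and load peptides for antigen presentation. Liver cells respond to both kinds of interferon.

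RNA came from HepG2, an established human hepatocellular carcinoma line, in 6 groups of 3 arrays, each array an independent biological repeat. A first population of cells carried an expression plasmid for the thyroid hormone receptor TRα1 (6 clones pooled), another a plasmid for TRβ1 (12 clones pooled) and the control population the empty plasmid (11 clones pooled). All 3 populations had been selected with G418, and each construct is represented by 1 pool of clones, so the receptor and the particular clones cannot be told apart. The medium held 10% serum stripped of hormones. Over 6 h each pool received ethanol alone as vehicle, or T3, thyroid hormone in its active form, at 100 nM. No group was given interferon, per the labels. As these are bulk samples, fewer cells expressing a gene and less RNA per cell cannot be told apart.

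Expression is given as log2 values after RMA, so a difference of 1 is a doubling. Different probes cannot be compared in RNA level, so the tests compare only arrays for the same gene. The means of different genes given next place them on the signal scale and do not rank their RNA. Over the 18 arrays, member means ran from 2.25 for IFI44, a gene induced by interferon in viral infection, to 8.97 for IFNGR1, the ligand-binding chain of the interferon gamma receptor. For 22 of the 43 members the mean lay below 6.13, the median over all tested features, so the array signal of many members was low. The 8 hepatocyte markers averaged between 11.77 and 12.04 in every array, and the 6 leukocyte markers between 5.99 and 6.25, with the pan-leukocyte marker PTPRC at 2.46 and the T cell marker CD3E at 3.94. LYZ and CD68, both of the leukocyte list, stood at 11.8 and 8.50. Arrays with the same replicate number deviated together, so each test is given without and, where it changes a call, with the replicate number as a block in the limma model. Benjamini-Hochberg adjusted p-values cover all 20546 features, and a gene passed at an adjusted p under 0.05. They measure the spread between these 18 arrays.

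The promoters of the members carry letters that the interferon factors are known to read, and the windows of those that the results turn on are shown here. RefSeq promoter sequences (GRCh38.p14, 250 bases before to 50 after a start site) were found for 36 of the 45 members, and not for MX2. The capitals mark pairs of GAAA in the same orientation, or TTTC where the pair is on the other strand, separated by 2 bases or by 1 base. Of the 3 start sites of MX1 and the 2 of PARP9 in the table, the window shown is the first of MX1 and the second of PARP9. The first PARP9 window held no such pair at either spacing, while both other MX1 windows held some. The MX1 window lies at chr21:41420308-41420607 on the plus strand, that of HERC5 at chr4:88456869-88457168 on the plus strand, that of PARP9 at chr3:122564251-122564550 on the minus strand, that of PARP14 at chr3:122680589-122680888 on the plus strand and that of OAS1 at chr12:112906712-112907011 on the plus strand.
MX1: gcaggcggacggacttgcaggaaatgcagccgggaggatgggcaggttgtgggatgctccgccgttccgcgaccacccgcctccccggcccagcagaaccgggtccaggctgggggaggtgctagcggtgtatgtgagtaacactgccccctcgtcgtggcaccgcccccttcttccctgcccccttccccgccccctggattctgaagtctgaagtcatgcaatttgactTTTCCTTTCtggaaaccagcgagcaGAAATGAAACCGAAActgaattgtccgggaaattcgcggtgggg
HERC5: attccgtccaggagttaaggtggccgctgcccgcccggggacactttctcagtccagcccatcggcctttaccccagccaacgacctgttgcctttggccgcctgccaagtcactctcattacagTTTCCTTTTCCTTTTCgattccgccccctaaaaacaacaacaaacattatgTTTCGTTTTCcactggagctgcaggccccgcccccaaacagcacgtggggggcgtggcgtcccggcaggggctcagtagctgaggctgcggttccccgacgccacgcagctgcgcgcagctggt
PARP9: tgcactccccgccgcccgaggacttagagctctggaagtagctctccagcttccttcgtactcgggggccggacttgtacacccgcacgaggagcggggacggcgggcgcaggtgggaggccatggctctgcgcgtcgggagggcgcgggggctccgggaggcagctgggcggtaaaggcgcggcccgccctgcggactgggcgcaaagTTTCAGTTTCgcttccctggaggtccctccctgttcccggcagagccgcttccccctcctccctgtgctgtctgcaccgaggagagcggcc
PARP14: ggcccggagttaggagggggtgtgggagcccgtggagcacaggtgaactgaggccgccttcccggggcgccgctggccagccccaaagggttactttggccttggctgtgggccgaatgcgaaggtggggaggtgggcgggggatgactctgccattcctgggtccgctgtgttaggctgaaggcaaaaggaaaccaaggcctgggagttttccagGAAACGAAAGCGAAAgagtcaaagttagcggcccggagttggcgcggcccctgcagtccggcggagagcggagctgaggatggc
OAS1: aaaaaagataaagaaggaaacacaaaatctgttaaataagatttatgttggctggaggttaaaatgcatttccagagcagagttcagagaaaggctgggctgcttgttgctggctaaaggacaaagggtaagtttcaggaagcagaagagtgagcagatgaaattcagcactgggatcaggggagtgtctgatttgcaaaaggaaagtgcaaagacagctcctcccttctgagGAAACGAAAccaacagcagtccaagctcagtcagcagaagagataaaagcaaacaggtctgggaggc
HERC6, the neighbour of HERC5 on chromosome 4, is shown as an example of a window without such a pair (chr4:88378602-88378901, plus strand). The windows of UBE2L6 and PSMB9, described below, held none either.
HERC6: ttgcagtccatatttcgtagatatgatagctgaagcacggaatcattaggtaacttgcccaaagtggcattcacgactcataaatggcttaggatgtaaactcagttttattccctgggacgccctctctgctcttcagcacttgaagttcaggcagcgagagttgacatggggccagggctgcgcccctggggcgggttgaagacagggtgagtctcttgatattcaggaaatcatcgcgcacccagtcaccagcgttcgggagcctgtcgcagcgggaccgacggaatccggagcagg

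A pair of GAAA separated by 2 bases, on either strand, was found in 25 of the 36 members with a window (69.4%), against 4.38% of the 27305 genes in the promoter table. The HERC5 window held 3 such pairs, and the windows shown for MX1, PARP9 and PARP14 1 each. OAS1 had no pair at that spacing, and its capitals mark a pair separated by 1 base, a spacing that was added after the sequences had been read and that 30.6% of the members and 3.87% of all genes had. The GAS letters TTCNNNGAA stood in the windows of 30.6% of the members, OAS1 and PARP14 among them, and of 9.38% of all genes. A direct repeat of AGGTCA with 4 bases between its copies, the arrangement best known for thyroid hormone receptors, was in none of the 36 members and in 0.0256% of all genes. Only 7 of the 27305 genes held this exact match, so its absence from 36 members carries no information on them. These matches describe the letters and do not show binding.

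Over both hormone states, 4 of 43 members were higher in the TRα1 pool than in the empty plasmid pool, where 1.38% of all features passed: MX2, HERC6, MX1 and PARP9. In the TRβ1 pool 3 were higher than in the empty plasmid pool, where 0.38% of all features passed: MX2, MX1 and HERC5. Of these, HERC5 passed on vehicle alone but not on T3 alone. MX1 and MX2 encode dynamin-like GTPases, of which MX1 restricts many RNA viruses and MX2 the nuclear entry of retroviruses. HERC5 is the main ligase that attaches ISG15 to proteins, HERC6 is its close relative, and PARP9 is an ADP-ribosyltransferase family protein that works with the ubiquitin ligase DTX3L. None of the 43 members was lower in either receptor pool at the threshold, with or without the replicate block.

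**Figure D1:**
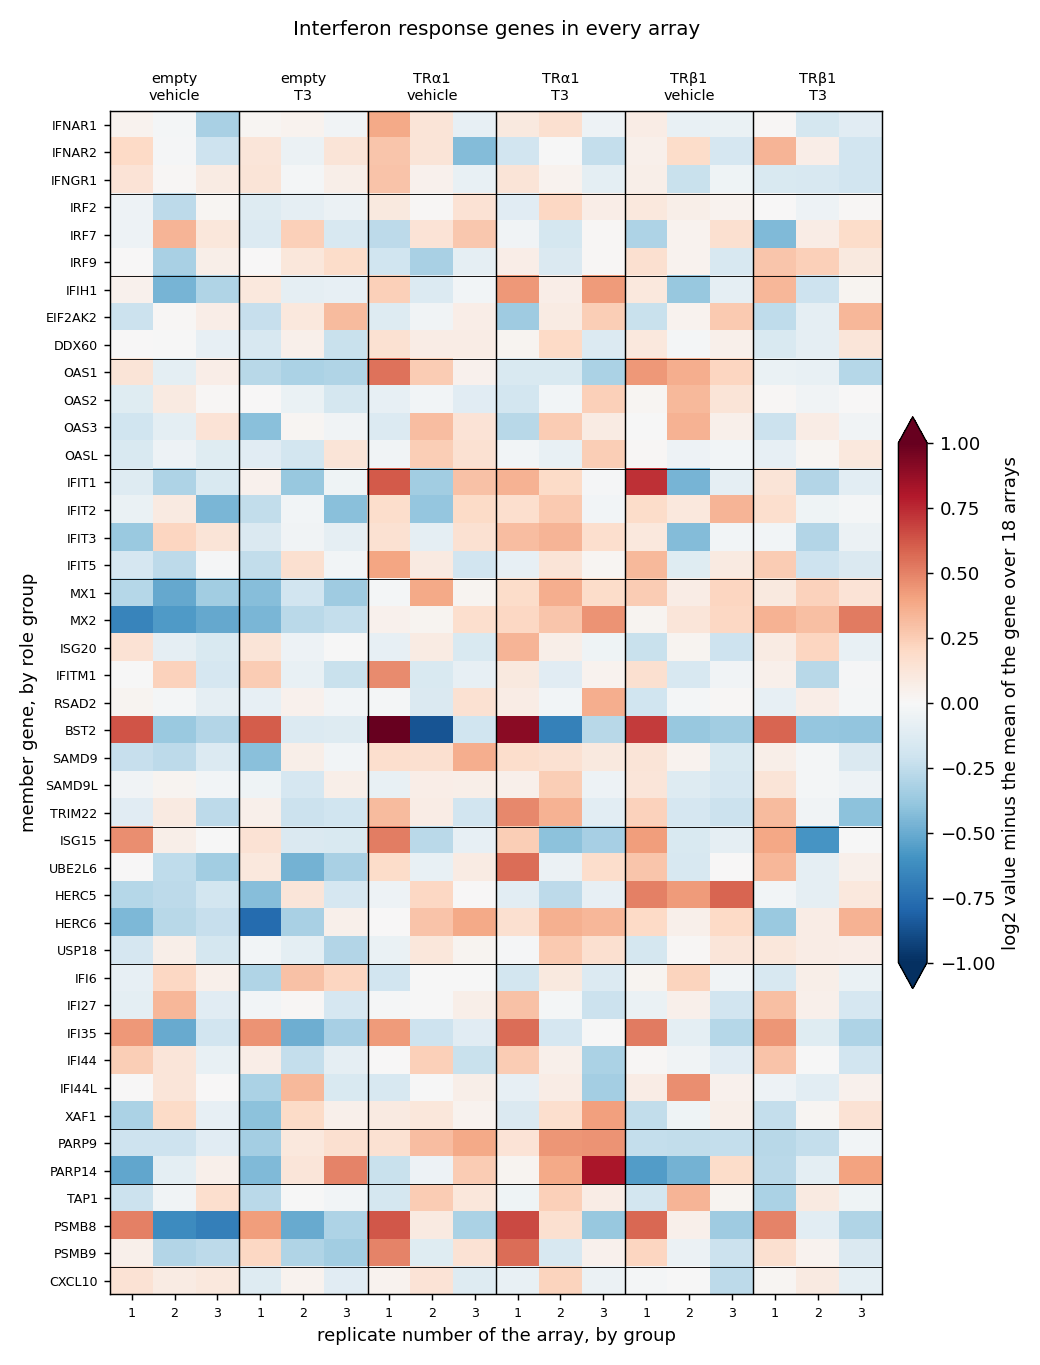
Log2 value of each of the 43 measured members minus its own mean over 18 arrays (colour, from -1 to 1), with genes in rows by role group and arrays in columns by group and replicate number. MX1 and MX2 are below their means in the 6 arrays of the empty plasmid pool, and BST2 and PSMB8 are above theirs in the 6 arrays numbered 1.

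With the replicate block, 10 of 43 members passed between the TRα1 and empty plasmid pools, where 7.54% of all features did, and 5 between the TRβ1 and empty plasmid pools, where 3.61% did. Both comparisons use the same 6 control arrays, so a gene that is low in those arrays is high in both. The median member difference was 0.15 for TRα1, with 33 of 43 members above 0, and 0.07 for TRβ1, with 29 above 0, where the median over all features was 0.00 for each to 2 decimals. Between the TRβ1 and TRα1 pools, 1 member passed against 0.35% of all features, and 2 with the block against 2.2%, with a member median of -0.06 and 32 of 43 below 0. Over all features the median there was -0.005, with 48% above 0.

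MX2 had the lowest adjusted p of the members in both comparisons with the control. In the empty plasmid pool it read 6.97, 7.07 and 7.12 on vehicle and 7.17, 7.36 and 7.39 on T3, in replicate order. In the TRα1 pool it read 7.68, 7.66 and 7.80 on vehicle and 7.84, 7.91 and 8.08 on T3. In the TRβ1 pool the values were 7.66, 7.75 and 7.84 on vehicle and 7.98, 7.93 and 8.15 on T3. All 12 arrays with a receptor plasmid lay above all 6 with the empty plasmid. Over both states MX2 was higher by 0.65 ± 0.07 (SE) in the TRα1 pool, a 1.57-fold difference (limma adjusted p = 0.000107), and by 0.70 ± 0.07 in the TRβ1 pool, a 1.63-fold difference (limma adjusted p = 8.71e-05).

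MX1, adjacent on chromosome 21, showed the same separation at lower signal. The empty plasmid pool read 5.17, 4.94 and 5.11 on vehicle and 5.03, 5.27 and 5.10 on T3. The TRα1 pool read 5.44, 5.84 and 5.48 on vehicle and 5.64, 5.82 and 5.64 on T3, and the TRβ1 pool 5.71, 5.53 and 5.67 on vehicle and 5.55, 5.69 and 5.59 on T3. No receptor array overlapped a control array. The difference was 0.54 ± 0.08 for TRα1 (1.45-fold, limma adjusted p = 0.00223) and 0.52 ± 0.08 for TRβ1 (1.43-fold, limma adjusted p = 0.00687). For MX1 and MX2 in these comparisons, leaving out any of the 18 arrays kept the adjusted p at or below 0.0275. Leaving out a whole replicate number, which leaves 2 arrays per group, gave limma adjusted p-values of up to 0.053 for MX2 and 0.214 for MX1 with TRα1, and of up to 0.0748 for MX2 and 0.688 for MX1 with TRβ1. With the block these were at most 0.0025, 0.0298 and 0.00256, and 0.0971 for MX1 with TRβ1, without number 3.

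The ISG15 system joins ISG15 to its targets through the conjugating enzyme UBE2L6 and the HERC ligases, and USP18 removes it. HERC6 read 4.50, 4.67 and 4.72 on vehicle and 4.18, 4.63 and 5.00 on T3 in the empty plasmid pool. In the TRα1 pool it read 4.95, 5.24 and 5.33 on vehicle and 5.11, 5.31 and 5.29 on T3, and in the TRβ1 pool 5.15, 5.00 and 5.15 on vehicle and 4.58, 5.02 and 5.30 on T3. The third T3 array of the empty plasmid pool and the first T3 array of the TRβ1 pool were the ones that made the pools overlap. The TRα1 difference was 0.59 ± 0.14 (1.501-fold, limma adjusted p = 0.0404, 0.000814 with the block). The TRβ1 difference of 0.41 ± 0.09 (SE with the block) passed only with the block (limma adjusted p = 0.423, 0.0181 with it).

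HERC5 was highest in the TRβ1 pool on vehicle, at 4.23, 4.15 and 4.30. The other arrays read 3.69, 3.63 and 3.82 in that pool on T3, 3.67, 3.93 and 3.73 on vehicle and 3.62, 3.46 and 3.64 on T3 in the TRα1 pool, and 3.44, 3.46 and 3.53 on vehicle and 3.29, 3.84 and 3.55 on T3 in the empty plasmid pool. Over both states the TRβ1 pool was higher than the control by 0.45 ± 0.09 (1.37-fold, limma adjusted p = 0.0313). That average joins unlike states: the means were 4.23 against 3.48 on vehicle, but 3.71 against 3.56 on T3. HERC5 did not pass on T3, where the control array at 3.84 lay above every TRβ1 array. Its signal was low, with a mean of 3.72 over the 18 arrays. UBE2L6 read 7.19, 6.93 and 6.84 on vehicle and 7.29, 6.72 and 6.86 on T3 in the empty plasmid pool, 7.37, 7.12 and 7.27 then 7.75, 7.13 and 7.36 in the TRα1 pool, and 7.47, 7.03 and 7.20 then 7.52, 7.10 and 7.24 in the TRβ1 pool. The pools overlapped, and in each of the 3 replicate numbers the mean of either receptor pool lay above that of the control. It passed only with the block, at 0.36 ± 0.06 (SE with the block) for TRα1 (limma adjusted p = 0.329, 0.00145 with it) and 0.28 ± 0.06 for TRβ1 (0.81, 0.0147 with it). The protease USP18 and ISG15 itself did not pass, with TRα1 differences of 0.20 and -0.12.

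PARP9 and PARP14 lie near each other on chromosome 3, with 2 protein-coding genes between them, and both proteins act on ADP-ribosylation in interferon-treated cells. PARP9 read 6.31, 6.47 and 6.54 on vehicle and 6.30, 6.60 and 6.61 on T3 in the TRα1 pool. It read 5.92, 5.91 and 5.92 on vehicle and 5.88, 5.92 and 6.13 on T3 in the TRβ1 pool, and 5.96, 5.95 and 6.05 on vehicle and 5.82, 6.26 and 6.32 on T3 in the empty plasmid pool. All 6 TRα1 arrays lay above all 6 TRβ1 arrays, while the control overlapped the TRα1 pool on T3. PARP9 was higher in the TRα1 pool than in the control by 0.41 ± 0.09 (1.33-fold, limma adjusted p = 0.036), and lower in the TRβ1 than in the TRα1 pool, at -0.52 ± 0.09 (1.44-fold, limma adjusted p = 0.0187). The TRβ1 pool differed from the control by -0.11, which did not pass.

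PARP14 read 6.91, 7.08 and 7.38 on vehicle and 7.16, 7.51 and 7.95 on T3 in the TRα1 pool, 6.57, 6.66 and 7.31 then 6.86, 7.04 and 7.53 in the TRβ1 pool, and 6.61, 7.03 and 7.18 then 6.69, 7.25 and 7.62 in the control. The 6 arrays numbered 1 lay below their group means in every group, by 0.33 on average. The pools overlapped, and PARP14 passed only with the block: 0.27 ± 0.07 (SE with the block) for TRα1 against control (limma adjusted p = 0.86, 0.0326 with it) and -0.34 ± 0.07 for TRβ1 against TRα1 (1, 0.0178 with it). DTX3L, the partner of PARP9 that lies between the 2 genes, differed by 0.18 between the TRα1 and control pools and by -0.22 between the TRβ1 and TRα1 pools and passed in neither.

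**Figure D2:**
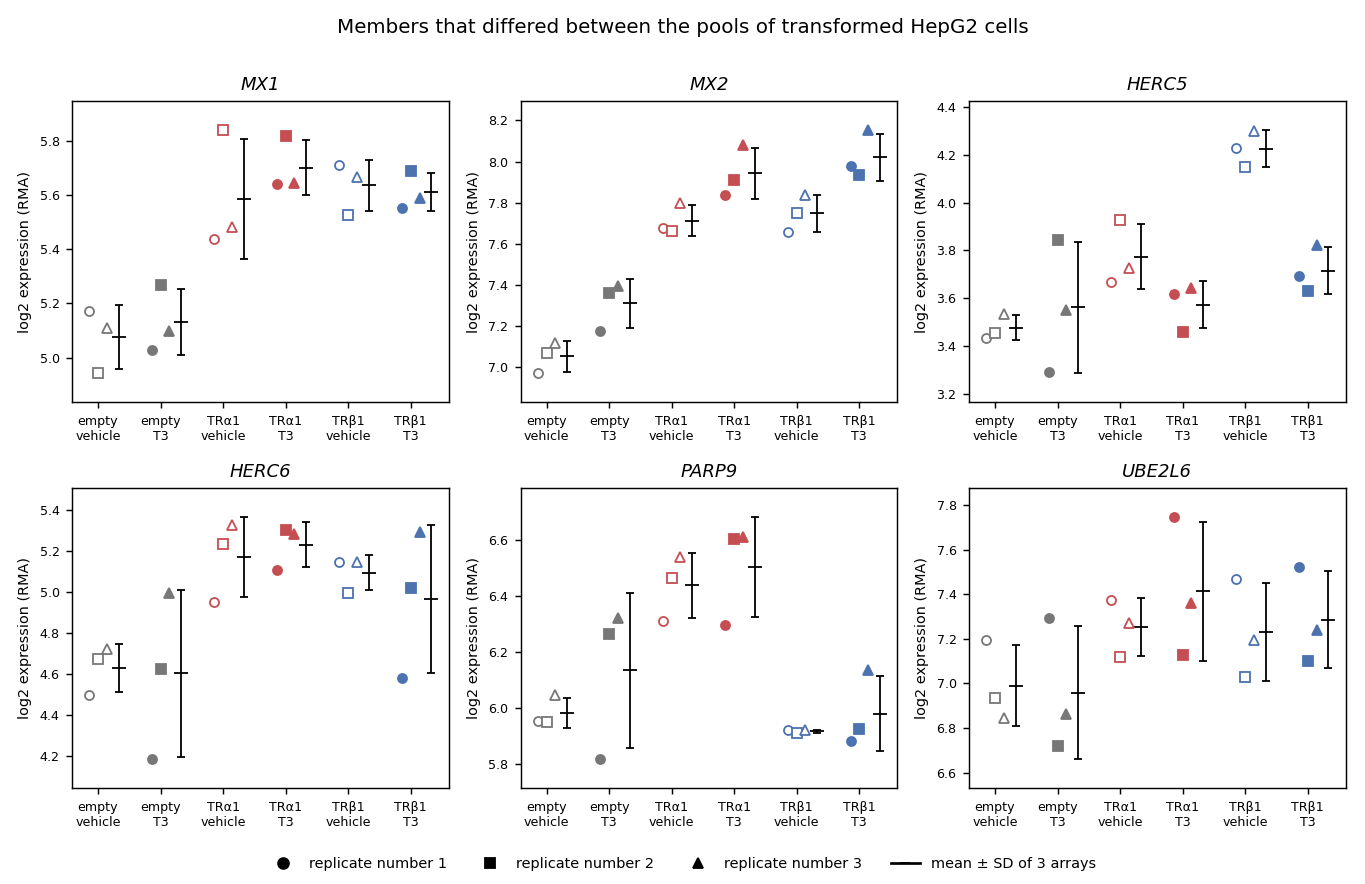
Log2 RMA expression of 6 members in each array (open symbols vehicle, filled symbols T3, shape by replicate number), with the mean ± SD of 3 arrays beside each group. MX1 and MX2 separate the receptor pools from the control, PARP9 separates TRα1 from TRβ1, and HERC5 is highest in the TRβ1 pool on vehicle.

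The single-array checks qualify these smaller calls. Without the block, the HERC6 call for TRα1 was lost when any of 14 of the 18 arrays was left out (limma adjusted p up to 0.116), the exceptions being vehicle array 1 of the TRα1 pool, T3 arrays 1 and 3 of the TRβ1 pool and T3 array 3 of the control. The PARP9 call for TRα1 against control was lost with 12 arrays (up to 0.112), all but vehicle array 1 and T3 array 1 of the TRα1 pool, vehicle array 1 and T3 arrays 1 and 3 of the TRβ1 pool and T3 array 3 of the control. The HERC5 call for TRβ1 was lost with 12 arrays (up to 0.103), all but vehicle arrays 1 and 2 and the T3 arrays of the TRα1 pool and T3 array 2 of the control. The PARP9 call for TRβ1 against TRα1 was lost with 9 arrays (up to 0.0626): arrays 2 and 3 of the TRα1 pool in both states, the TRβ1 vehicle arrays and TRβ1 T3 arrays 1 and 2. With the block none of the 18 single arrays ended these 4 calls, but leaving out a replicate number ended each. The limma adjusted p was then 0.0597 for HERC6 without number 2 and 0.0581 for PARP9 against control without number 3. It was 0.0749 and 0.189 for HERC5 without numbers 1 and 3, and 0.0635 for PARP9 between the receptor pools without number 3.

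IFIH1, SAMD9, PSMB8 and PSMB9 passed in the TRα1 pool only with the block. IFIH1, the cytoplasmic sensor of viral RNA also called MDA5, read 6.22, 5.85 and 5.95 on vehicle and 6.41, 6.05 and 6.41 on T3, against 6.03, 5.51 and 5.68 and then 6.09, 5.89 and 5.90 in the control. The TRβ1 pool lay between them in mean, at 6.09, 5.61 and 5.89 on vehicle and 6.31, 5.78 and 6.01 on T3. The pools overlapped, and the difference of 0.30 ± 0.06 (SE with the block) for TRα1 had a limma adjusted p of 0.453, or 0.00494 with the block. EIF2AK2, the kinase PKR that halts translation, and the helicase DDX60 did not pass. DDX60 read 2.49, 2.41 and 2.40 on vehicle and 2.36, 2.53 and 2.20 on T3 in the TRα1 pool, 2.44, 2.31 and 2.38 then 2.18, 2.24 and 2.45 in the TRβ1 pool, and 2.34, 2.33 and 2.25 then 2.17, 2.38 and 2.11 in the control.

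SAMD9, an antiviral protein that acts on translation, read 3.78, 3.77 and 3.98 on vehicle and 3.79, 3.77 and 3.71 on T3 in the TRα1 pool, against 3.38, 3.35 and 3.48 and then 3.19, 3.67 and 3.59 in the control. The TRβ1 pool read 3.75, 3.65 and 3.46 on vehicle and 3.67, 3.60 and 3.47 on T3. All TRα1 arrays lay above all control arrays, at a signal low on the scale, and the difference was 0.36 ± 0.08 (SE with the block, limma adjusted p = 0.0614, 0.0152 with the block). Its neighbour SAMD9L did not pass.

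The immunoproteasome subunits PSMB8 and PSMB9 cut proteins into peptides for antigen presentation, and TAP1 carries the peptides into the endoplasmic reticulum; the 3 genes are adjacent on chromosome 6. PSMB8 read 8.03, 7.50 and 7.09 on vehicle and 8.07, 7.57 and 7.03 on T3 in the TRα1 pool, 7.98, 7.46 and 7.05 then 7.90, 7.30 and 7.11 in the TRβ1 pool, and 7.91, 6.78 and 6.73 then 7.83, 6.90 and 7.10 in the control. PSMB9 read 7.51, 6.90 and 7.16 then 7.57, 6.86 and 7.06 in the TRα1 pool, 7.23, 6.96 and 6.80 then 7.18, 7.05 and 6.88 in the TRβ1 pool, and 7.07, 6.72 and 6.75 then 7.22, 6.71 and 6.67 in the control. Arrays numbered 1 were the highest in all 6 groups for both genes, and the pools overlapped. With the block the TRα1 pool was higher by 0.34 ± 0.09 (SE with the block) for PSMB8 (limma adjusted p = 0.883 without, 0.0308 with it) and by 0.32 ± 0.07 for PSMB9 (0.549, 0.013 with it), while TAP1 at 0.14 did not pass. The blocked PSMB8 call was lost with 7 of the 18 arrays (limma adjusted p up to 0.0954): vehicle arrays 2 and 3 and T3 arrays 1 and 2 of the TRα1 pool, and vehicle arrays 2 and 3 and T3 array 2 of the control.

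Among the other calls that needed the block, that of PARP14 for TRα1 against control was lost with 7 arrays (limma adjusted p up to 0.0848): vehicle arrays 1 and 2 and T3 arrays 2 and 3 of the TRα1 pool, and vehicle arrays 1 and 3 and T3 array 1 of the control. PARP14 for TRβ1 against TRα1 was lost with 4 arrays (up to 0.0607): vehicle array 1 and T3 array 3 of the TRα1 pool, and vehicle and T3 array 2 of the TRβ1 pool. HERC6 for TRβ1 was lost with 3 arrays (up to 0.0593): T3 arrays 2 and 3 of the TRβ1 pool and vehicle array 3 of the control. The blocked calls of IFIH1, SAMD9, PSMB9 and UBE2L6 were kept without any 1 of the 18 arrays, but not without every replicate number. SAMD9 was lost without any of the 3 numbers (limma adjusted p up to 0.11), IFIH1 without 2 or 3 (up to 0.165) and PSMB9 without 1 or 3 (up to 0.227). UBE2L6 was lost without 3 for TRα1 (0.121) and without any number for TRβ1 (up to 0.278).

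The receptors, transcription factors, OAS and IFIT families, the IFI genes and the chemokine CXCL10 gave no call between pools over both states, in either fit. IFNAR1, a chain of the type I receptor, read 8.37, 8.12 and 7.91 on vehicle and 8.09, 8.15 and 7.94 on T3 in the TRα1 pool, 8.06, 7.92 and 7.93 then 8.01, 7.82 and 7.88 in the TRβ1 pool, and 8.03, 7.97 and 7.67 then 8.01, 8.02 and 7.95 in the control. IFNGR1 read 9.25, 9.01 and 8.89 then 9.10, 9.01 and 8.87 in the TRα1 pool, 9.03, 8.75 and 8.93 then 8.82, 8.81 and 8.78 in the TRβ1 pool, and 9.10, 8.98 and 9.05 then 9.10, 8.95 and 9.03 in the control. These chains ran over less than 1 log2 unit in all 18 arrays, with differences of up to 0.18 in size. IFNAR2 differed by up to 0.12.

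Of the transcription factors, IRF9, a DNA-binding subunit of the complex that type I interferon activates, read 6.12, 6.00 and 6.23 on vehicle and 6.38, 6.17 and 6.33 on T3 in the TRα1 pool, 6.48, 6.35 and 6.15 then 6.60, 6.56 and 6.42 in the TRβ1 pool, and 6.33, 6.00 and 6.38 then 6.32, 6.43 and 6.50 in the control. IRF2, which damps interferon-driven transcription, read 7.83, 7.75 and 7.88 then 7.62, 7.94 and 7.80 in the TRα1 pool, 7.84, 7.80 and 7.77 then 7.74, 7.68 and 7.75 in the TRβ1 pool, and 7.68, 7.47 and 7.75 then 7.60, 7.64 and 7.68 in the control. IRF9 differed by 0.22 between TRβ1 and TRα1 and IRF2 by 0.17 between TRα1 and control, and neither passed. IRF7, the amplifier of type I interferon production, differed by up to 0.11 in size.

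IFIT proteins bind viral RNA and block its translation. IFIT1 read 5.20, 4.23 and 4.87 on vehicle and 4.93, 4.77 and 4.57 on T3 in the TRα1 pool, 5.31, 4.11 and 4.49 then 4.71, 4.29 and 4.48 in the TRβ1 pool, and 4.45, 4.27 and 4.43 then 4.62, 4.20 and 4.54 in the control. IFIT2 read 3.26, 2.697 and 3.28 then 3.25, 3.35 and 3.06 in the TRα1 pool, 3.26, 3.19 and 3.42 then 3.25, 3.04 and 3.06 in the TRβ1 pool, and 3.02, 3.17 and 2.62 then 2.83, 3.06 and 2.67 in the control. Repeats of IFIT1 on vehicle spread widely in the receptor pools (SD 0.49 and 0.61, n = 3), and its TRα1 difference of 0.34 ± 0.19 had a limma adjusted p of 0.701, or 0.104 with the block. IFIT2 differed by 0.31 between TRβ1 and control, and all 4 IFIT genes lay above 0 for TRα1, but none passed. In the OAS family, named for synthetases that make the activator of RNase L, the 4 genes lay above 0 in both receptor pools, by 0.01 to 0.17 for TRα1 and 0.08 to 0.23 for TRβ1, with none past the threshold. OASL, a relative without synthetase activity, read 4.34, 4.62 and 4.53 on vehicle and 4.35, 4.30 and 4.62 on T3 in the TRα1 pool, 4.38, 4.33 and 4.35 then 4.30, 4.40 and 4.48 in the TRβ1 pool, and 4.22, 4.33 and 4.25 then 4.26, 4.19 and 4.50 in the control.

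The IFI genes and XAF1 differed by at most 0.19 in size. IFI35 read 8.59, 7.96 and 8.05 on vehicle and 8.72, 8.001 and 8.16 on T3 in the TRα1 pool, 8.69, 8.07 and 7.89 then 8.61, 8.04 and 7.86 in the TRβ1 pool, and 8.60, 7.66 and 7.97 then 8.61, 7.68 and 7.84 in the control. XAF1, a promoter of apoptosis, read 5.22, 5.25 and 5.16 then 4.99, 5.30 and 5.54 in the TRα1 pool, 4.89, 5.09 and 5.19 then 4.89, 5.16 and 5.28 in the TRβ1 pool, and 4.82, 5.32 and 5.05 then 4.72, 5.33 and 5.18 in the control. CXCL10, a chemokine that draws T cells and is strongly induced by interferon gamma, read 2.42, 2.53 and 2.26 then 2.32, 2.61 and 2.33 in the TRα1 pool, 2.37, 2.39 and 2.13 then 2.41, 2.48 and 2.29 in the TRβ1 pool, and 2.53, 2.47 and 2.50 then 2.26, 2.43 and 2.28 in the control. The antiviral effectors BST2 (tetherin), RSAD2 (viperin), IFITM1, ISG20 and TRIM22 did not pass, and BST2 spread by replicate number from 6.64 to 8.53.

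**Figure D3:**
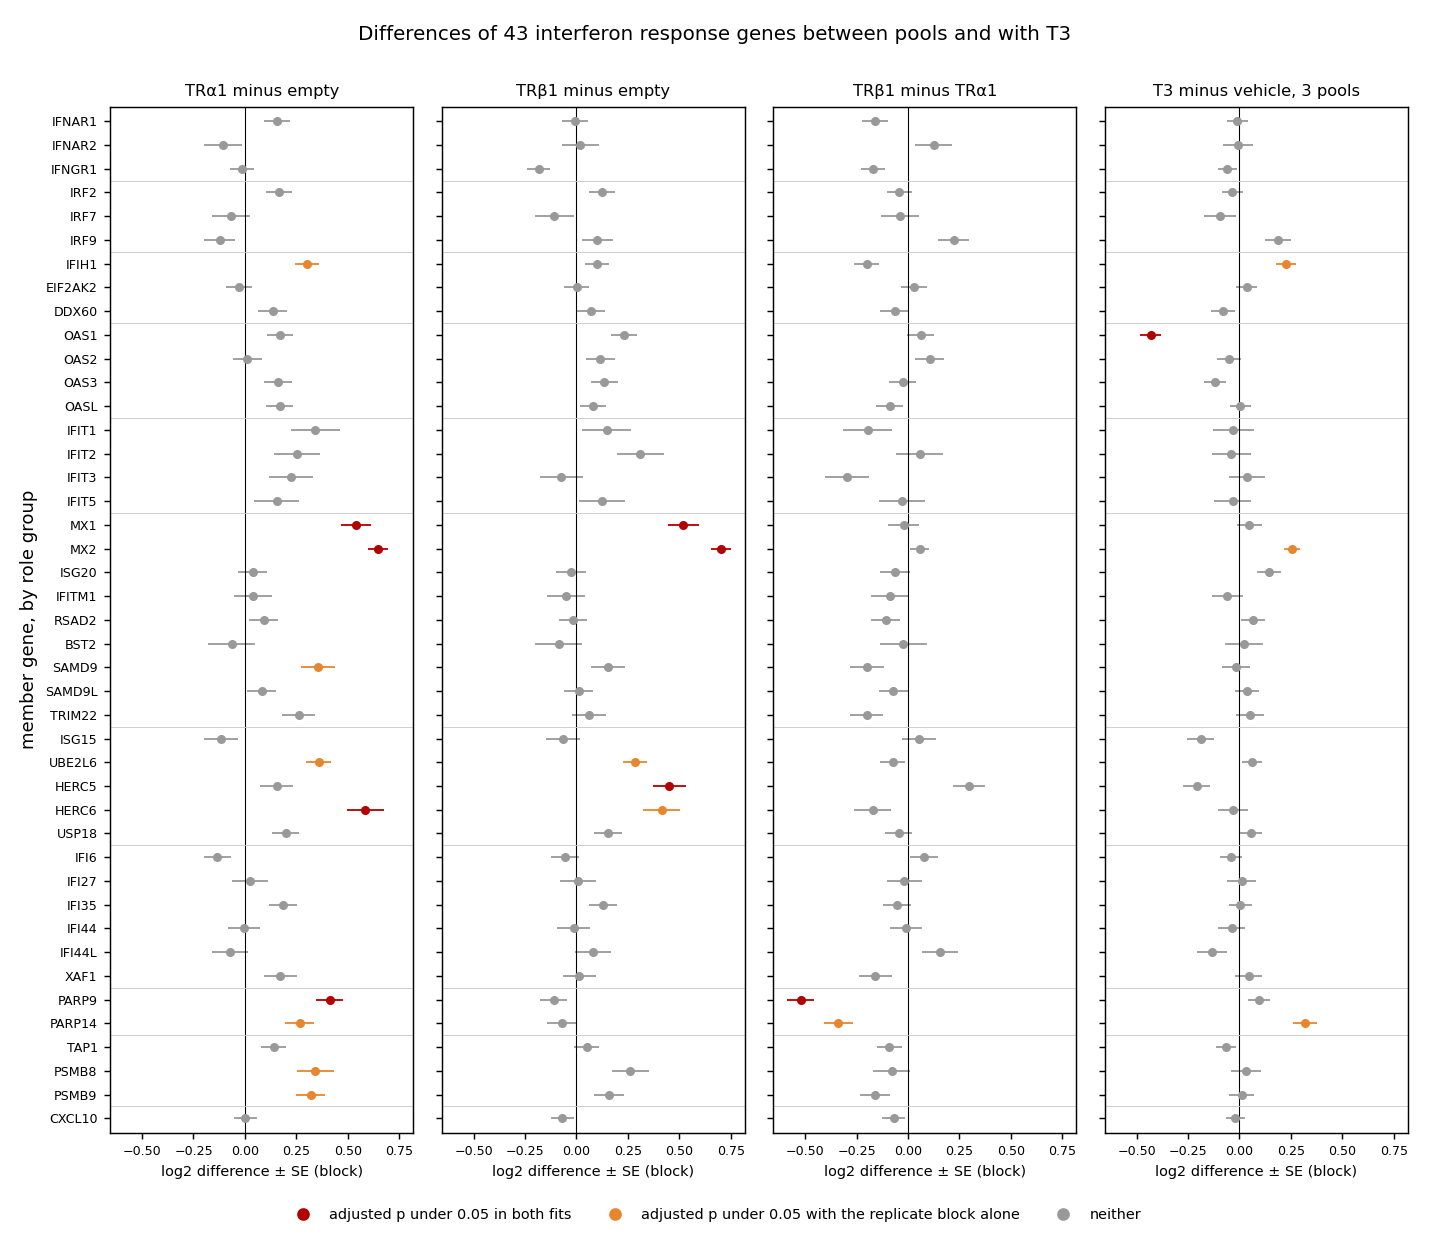
Difference in log2 expression of each of the 43 members for the pools over both hormone states and for T3 minus vehicle averaged over the 3 pools, with bars for ± SE of the limma fit with the replicate block and colour for the genes past the threshold in both fits, with the block alone or in neither. MX1 and MX2 lie above 0 for both receptor pools against the control, and OAS1 lies below 0 for T3.

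The same comparisons within each hormone state use arrays already counted above. On vehicle, 1 member (MX2) passed for TRα1 against control where 0.307% of all features did, and 4 with the block (MX1, MX2, HERC6, PARP9) where 2.07% did. On T3, 2 members (MX1, MX2) passed against 0.433%, and 6 with the block (IFIH1, UBE2L6 and the same 4) against 2.83%. For TRβ1 on vehicle, 2 members (MX2, HERC5) passed against 0.117%, and 3 with the block (MX1 added) against 0.735%. On T3, 1 member (MX2) passed against 0.156%, and 2 with the block (MX1 added) against 0.871%. Between TRβ1 and TRα1, 0 members passed on vehicle (0% of all features) or on T3 (0.0438%), and 1 with the block in each state, PARP9 at -0.52, where 0.54% and 0.604% of features did. At an unadjusted p under 0.05 in limma, 2 of 43 members (4.65%) differed between TRβ1 and TRα1 in each state, where 2.89% of all features did on vehicle and 2.78% on T3.

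Of the member differences between pools or between T3 and vehicle, that of HERC5 on vehicle was the widest, at 0.75 ± 0.13 for TRβ1 against control (1.68-fold, limma adjusted p = 0.0241). MX2 differed by 0.66 and 0.70 on vehicle and by 0.63 and 0.71 on T3 for TRα1 and TRβ1. The vehicle HERC5 call was lost without any of the 6 arrays compared (limma adjusted p up to 0.138). The MX2 calls were lost without vehicle array 3 (0.0547) and T3 array 3 (0.0586) of the TRα1 pool, T3 array 3 of the TRβ1 pool (0.0541), and, for TRβ1 on vehicle, arrays 2 and 3 of that pool and 1 and 2 of the control (up to 0.0712). The T3 call of MX1 for TRα1 (limma adjusted p = 0.0479) was lost without any 1 of 16 arrays (up to 0.245), those other than vehicle arrays 1 and 2 of the TRα1 pool. With the block, none of the 18 arrays ended the HERC5 or MX2 calls or that T3 call of MX1. Leaving out number 1 or 3 did end the HERC5 call (up to 0.228) and the MX1 call (up to 0.222), but no left-out number ended the MX2 calls (up to 0.0495), and every call within a state that needed the block was lost with 1 to 17 of the arrays (up to 0.227).

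OAS1, a synthetase of the oligoadenylates that activate RNase L, fell on T3 in the average over the 3 pools. In the TRα1 pool OAS1 read 7.83, 7.54 and 7.33 on vehicle and 7.14, 7.14 and 6.97 on T3. In the TRβ1 pool it read 7.72, 7.65 and 7.50 on vehicle and 7.22, 7.21 and 7.002 on T3, and in the control 7.42, 7.19 and 7.35 on vehicle and 7.01, 6.97 and 6.98 on T3. In each pool the 3 T3 arrays lay below the 3 vehicle arrays. OAS1 fell by 0.43 ± 0.07 on the log2 scale, a 1.35-fold difference (limma adjusted p = 0.00654, 0.000159 with the block), and the adjusted p stayed at or below 0.0211 without any 1 of the 18 arrays. Without a whole replicate number it was between 0.0664 and 0.417, or at most 0.029 with the block. OAS3 and OAS2, the next genes on chromosome 12, differed by -0.12 and -0.05 and did not pass.

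In that average, 1 of 43 members passed where 0.423% of all features did, and 4 with the block where 1.69% did. MX2, PARP14 and IFIH1 were the 3 added, all higher on T3. MX2 was higher by 0.25 ± 0.04 (SE with the block, limma adjusted p = 0.114, 0.00155 with the block), and in each pool its 3 T3 values given above lay above its 3 vehicle values. PARP14 was higher by 0.32 ± 0.06 (1, 0.00715 with it), and in every same-numbered pair of every pool its T3 value was the higher. IFIH1 was higher by 0.23 ± 0.05 (1, 0.023 with it), a blocked call that was lost with 6 of the 18 arrays (up to 0.0634): vehicle and T3 array 3 of the TRα1 pool, vehicle array 2 and T3 arrays 1 and 3 of the TRβ1 pool and vehicle array 3 of the control. The blocked calls of MX2 and PARP14 held without any single array but were lost without numbers 1 or 3 for MX2 (up to 0.23) and 2 or 3 for PARP14 (up to 0.311), and that of IFIH1 without any number (up to 0.457). The member median of T3 minus vehicle was -0.01, as was that of all features.

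**Figure D4:**
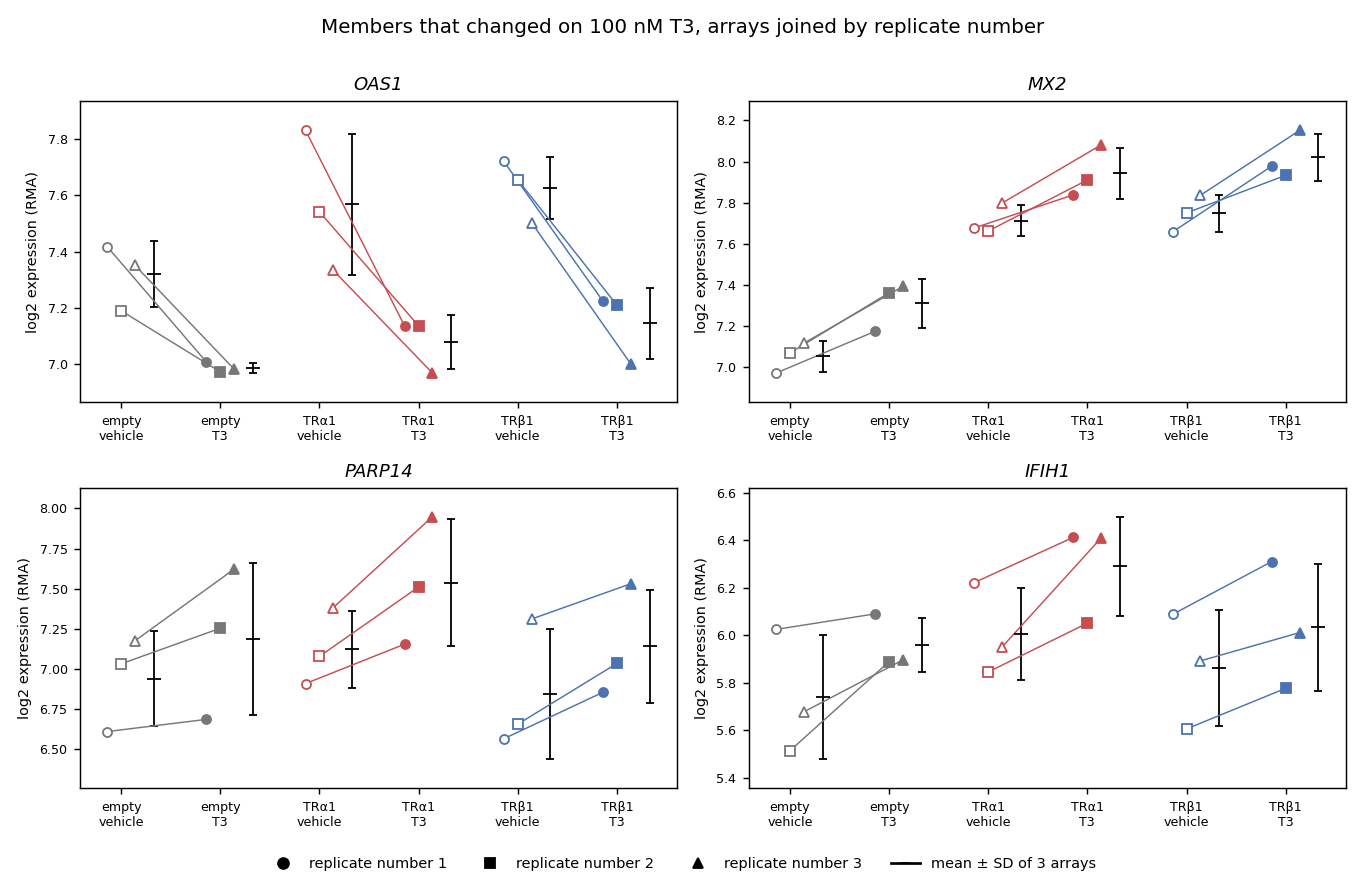
Log2 RMA expression of members with a T3 difference, in each array (open symbols vehicle, filled symbols T3), with lines joining same-numbered arrays and the mean ± SD of 3 arrays beside each group. OAS1 falls and MX2 is higher along every line of every pool.

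Within single pools, 0 of 43 members passed without the block, where 0.131% of all features passed in the TRα1 pool, 0.073% in the TRβ1 pool and 0.00973% in the empty plasmid pool. At an unadjusted p under 0.05, limma counted 2, 3 and 2 members in these pools (4.65%, 6.98% and 4.65%), where 2.55%, 2.22% and 2.03% of all features reached it. With the block, OAS1 passed in the TRα1 pool at -0.49 ± 0.09 (SE with the block, limma adjusted p = 0.313 without, 0.0162 with it) and in the TRβ1 pool at -0.48 ± 0.09 (0.472, 0.0237 with it), where 0.667% and 0.477% of features did. These blocked calls were lost with 4 and 6 arrays, vehicle arrays 1 and 2 and T3 arrays 1 and 3 of the TRα1 pool (up to 0.105) and each array of the TRβ1 pool (up to 0.156). In the empty plasmid pool OAS1 differed by -0.33 and 0 members passed with the block, where 0.0973% of features did (in limma with the block, 11.6% of members and 5.95% of features had an unadjusted p under 0.05). HERC5 in the TRβ1 pool had the widest T3 difference, -0.51 ± 0.13, with a limma adjusted p of 0.371, or 0.0686 with the block.

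Whether the hormone response depended on the receptor was tested as the difference between the T3 responses. For TRα1 against control, 0 of 43 members passed, as did 0% of all features, and 0 with the block, where 0.0292% did. For TRβ1 against control and for TRβ1 against TRα1, 0 members and 0% of features passed in either fit. At an unadjusted p under 0.05 limma without the block counted 0, 1 and 0 members, and with the block 0, 2 and 0, where 1.39%, 1.34% and 1.09% of features did without it and 3.75%, 4.06% and 3.01% with it. The OAS1 response differed from the control's by -0.16 for TRα1 (95% interval with the block -0.43 to 0.12) and by -0.15 for TRβ1 (-0.42 to 0.12), intervals that hold 0 and also a difference as large as the response itself in the control. The HERC5 response differed between TRβ1 and control by -0.60 (95% interval with the block -0.94 to -0.26), but its limma adjusted p was 1.

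A further 102 genes of interferon signalling, sensing and antigen processing were listed, of which 93 were measured. On T3, IRF1, a transcription factor of the interferon gamma response, rose by 1.09 ± 0.17 in the TRα1 pool (limma adjusted p = 0.0138). It was the single call of the 93 there without the block, where 0.131% of all features passed. Averaged over the pools, IRF1 rose by 0.66 ± 0.10 and TNFSF10, the death ligand TRAIL, by 0.98 ± 0.13. These were 2 of 93 called, where 0.423% of all features passed. The list was chosen with earlier results of these data known, so neither count is an independent comparison with all features. By pool, IRF1 differed by 0.49 with TRβ1 and 0.39 with the empty plasmid and passed in neither pool, with or without the block. Its response with TRα1 was larger than that with the empty plasmid by 0.70, which did not pass in either fit. TNFSF10 differed by 1.13 with TRα1, 0.96 with TRβ1 and 0.84 with the empty plasmid, each past the threshold only with the block. The kinases JAK1 and TYK2, the receptor chain IFNGR2, the cytokine IFNB1 (mean 2.67 over the 18 arrays) and the inhibitor SOCS1 did not pass in any comparison.

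Between pools over both states, 0 of the 93 passed in limma without the block, and an unadjusted p under 0.05 was reached by 8 of them for TRα1 and 5 for TRβ1 against the control, and by 3 between the receptor pools. These are 8.6%, 5.38% and 3.23% of the 93, close to or below the 8.48%, 5.97% and 4.48% of all features. In direction the 93 leaned the same way as the members. Against the control, 69.9% lay above 0 for TRα1 and 61.3% for TRβ1, where 50.5% and 50% of all features did. For TRβ1 against TRα1, 61 of the 93 lay below 0. With the block, 7 were higher and 2 lower in the TRα1 pool than in the control, 9.68% of the list against 7.54% of all features, so the count is near the background. Higher were NMI, an interferon-induced protein, at 0.70, SLFN5 at 0.41, the entry inhibitor IFITM2 at 0.37, the peptide-loading factor TAPBP at 0.28, the RNA-sensing adaptor MAVS at 0.25, OGFR at 0.25 and the aminopeptidase ERAP2 at 0.24. The proteasome activators PSME1 and PSME2 were lower, at -0.25 and -0.43, and with the block they were higher in the TRβ1 than in the TRα1 pool, at 0.34 and 0.47. These 2 calls are 2.15% of the list against 2.2% of all features, so that count is also near the background. IFITM2 at 0.37 was the single gene called for TRβ1 against control (1.08% against 3.61% of features). On T3 alone, IRF1 (0.65), OGFR (0.35) and TAPBP (0.34) passed with the block for TRα1 against control, 3.23% of the list against 2.83% of features. On vehicle, PSME1 (0.36) passed with the block for TRβ1 against TRα1, 1.08% of the list against 0.54% of features.

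Some markers of cell identity differed between the same pools. TTR and AFP, secreted products of hepatocytes, were lower in the TRα1 pool than in the control by limma, at -0.70 ± 0.11 (adjusted p = 0.00211) and -0.31 ± 0.06 (0.0149), and so was LYZ of the leukocyte list, at -0.42 ± 0.08 (0.00789). With the block, ALB was also lower at -0.21 (0.0123), while APOA1 was higher at 0.32 (0.0154), as was CD14 of the leukocyte list at 0.36 (0.0209). The members of each list differed in direction, and the median difference was -0.03 over the 8 hepatocyte and 0.02 over the 6 leukocyte markers. CD14, a leukocyte marker that hepatocytes also make, rose on T3 by 0.70 ± 0.09 over the 3 pools (limma adjusted p = 0.000508). The hepatocyte list averaged 11.77 to 11.95 on vehicle and 11.78 to 11.91 on T3 in the TRα1 pool, 11.88 to 12.01 and 11.90 to 12.04 in the TRβ1 pool, and 11.85 to 11.97 and 11.95 to 11.998 in the control, so that it did not overlap between the TRα1 and control arrays on T3. The leukocyte list averaged 6.01 to 6.23 and 6.14 to 6.25 in the TRα1 pool, 5.99 to 6.16 and 6.10 to 6.13 in the TRβ1 pool, and 6.03 to 6.23 and 6.12 to 6.20 in the control. Their part in the interferon gene differences was not tested.

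Members also varied with the replicate number. In the 6 arrays numbered 1, 11 of the 43 members lay above their group mean in every group and 6 lay below it. The same count over all features was not made, and arrays sharing a number correlated positively over all features. BST2 averaged 0.74 and PSMB8 0.55 above, and PARP14 0.33 below. For MX1 the average was -0.03 and for HERC5 -0.07, so these 2 members moved little with the number. Of the others that differed between pools, MX2 averaged -0.08 and lay below its group mean in all 6 arrays. PARP9 averaged -0.13, HERC6 -0.21 and UBE2L6 0.24. What the numbers stand for is not given in the labels, and their part was removed in the fit with the block.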

How the data were processed

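The deposited values are log2 expression per feature after RMA, which the authors ran in R (version 2.7.1 in the submitters' processing notes), on 18 Affymetrix Human Gene ST arrays of 6 groups. Genes were named through the platform annotation, by features with a single gene. A model of 6 group means was fitted with limma 3.58.1 (R 4.3.3) to all 20546 features with a symbol, with 16 comparisons, two-sided Benjamini-Hochberg adjusted p-values within each and a threshold of 0.05. The alternative added the replicate number as a block: all 45 pairs of arrays sharing a number correlated positively after removing group means (lowest 0.259). The labels call the repeats independent. The median standard error of a pool difference on vehicle was 0.157, or 0.107 with the block. Precision is limited by the 3 arrays per group. Per-array values are given for members past the threshold in either fit, and otherwise for those with the largest differences in a role group. Alternatives were other scalings, filters, weights and left-out arrays. The scripts were tested on simulated data. The members and lists were chosen with earlier results of these data known.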

Additional observations from a re-analysis of the deposited data

Results flagged for a closer look

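For 2 members the T3 response had opposite signs in every same-numbered pair of 2 pools. The pattern was not counted over all features, so this number has no background to be set against. IFI35 was higher on T3 in 3 of 3 pairs of the TRα1 pool and lower in 3 of 3 pairs of the TRβ1 pool, with a gap of 0.14 log2 units between the responses. CXCL10 was higher in 3 of 3 pairs of the TRβ1 pool and lower in 3 of 3 of the empty plasmid pool, with a gap of 0.27. The CXCL10 signal was low, with a mean of 2.39 over the 18 arrays. The limma test of either gap gave an adjusted p of 1, with and without the replicate block. Groups of 3 arrays were not screened for outlying arrays.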

How the results depend on the processing

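No difference that passed in either fit changed sign under the alternatives run. With the replicate number as a block, which pairs the arrays, the members called rose from 0 to 1 for T3 in the TRα1 and in the TRβ1 pool, from 1 to 4 for T3 averaged over the pools, from 1 to 4 and 2 to 6 for TRα1 against control on vehicle and on T3, from 1 to 2 for TRβ1 against control on T3, from 0 to 1 for TRβ1 against TRα1 in each state, and over both states from 4 to 10 (TRα1), 3 to 5 (TRβ1) and 1 to 2 (TRβ1 against TRα1). Arrays centred on their median with the block gave 1, 1, 4, 3, 4, 1, 1, 9, 5 and 2 for T3 in TRα1, T3 in TRβ1, T3 averaged, TRα1 against control on vehicle and on T3, TRβ1 against TRα1 on vehicle and on T3, and over both states TRα1, TRβ1 and TRβ1 against TRα1; quantile normalization repeated with the block gave 1, 1, 4, 3, 4, 1, 1, 10, 6 and 2. Both of these were added after seeing the data. Without the block, array weights gave 2 for T3 averaged and 2 for TRα1 on vehicle, and centring gave 2 for T3 averaged. Features at or above the median level, which leaves out dim members, gave 1 for TRβ1 on vehicle, 1 for TRα1 on T3 and 2 and 1 over both states for TRα1 and TRβ1. Testing all 32321 features gave 1 for TRα1 on T3 and 2 over both states, and repeated quantile normalization gave 1 for TRα1 on T3. Fits on the compared arrays alone, with fewer arrays, gave 0 for both receptor pools against control in each state and 2 for TRα1 over both states. Leaving out an array or a replicate number gave 0 to 1 for T3 averaged, 0 to 1 and 0 to 2 for TRα1 on vehicle and on T3, 0 to 2 and 0 to 1 for TRβ1, and over both states 0 to 4, 0 to 3 and 0 to 1. With the block, leaving out replicate number 1, 2 or 3 as a whole gave 6, 6 and 3 for TRα1 over both states and 3, 3 and 1 for TRβ1. An average over several features was not run, as each member has 1.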

Other observations

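GBP1, a guanylate-binding protein induced by interferon gamma, was read only by a feature shared with GBP3 and the pseudogene GBP1P1, whose signals cannot be separated. That feature was higher in the TRα1 pool than in the empty plasmid pool over both states, by 0.54 ± 0.13 (SE, limma adjusted p = 0.049), and lower in the TRβ1 than in the TRα1 pool, at -0.67 ± 0.13 (0.0303). By replicate number, TRα1 differed from the empty plasmid pool by 0.84, 0.80 and -0.03, so number 3 showed no rise. TRβ1 differed from TRα1 by -0.81, -0.77 and -0.43. In both comparisons the arrays of the pools overlapped. The group means of the feature were 5.91 on vehicle and 6.20 on T3 with TRα1, 5.13 and 5.64 with TRβ1, and 5.52 and 5.52 with the empty plasmid. A feature shared by USP18 and USP41P did not pass in these comparisons.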
